A study of Mus musculus with 7 samples.

Results

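Chylomicron assembly and triglyceride synthesis genes were examined in the ileum of mice fed a low or a normal cystine diet. The set was chosen by symbol and holds 10 of the 38293 genes in the table, namely Apob, Apoa1, Apoa4, Apoc2 and Apoc3 (apolipoproteins of the chylomicron), Mttp (lipid transfer), Mogat2, Dgat1 and Dgat2 (triglyceride synthesis) and Plin2 (lipid droplet coat). After a meal, absorptive enterocytes take up fatty acids and monoacylglycerol and rebuild triglyceride from them in the endoplasmic reticulum. Microsomal triglyceride transfer protein loads that lipid onto apolipoprotein B, and the growing particle leaves for the Golgi in large transport vesicles and is secreted into the lymph as a chylomicron. Triglyceride that is not exported at once is kept in cytosolic lipid droplets.

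The libraries were made from male C57BL/6NRJ mice, which were housed individually and were 8 weeks old when the experiment began. They ate a purified AIN93-G diet high in fat (40% of energy) and low in calcium. All mice spent 1 week on the control form of that diet. For the next 2 weeks, the normal cys group (n = 4 mice) stayed on 0.38% cystine, whereas in the low cys group (n = 3 mice) the added 0.3% was exchanged for 0.11% alanine, leaving 0.08%. After a 4 h fast, RNA came from scrapings of the last of 4 parts of the small intestine. By the study's methods, scrapings take the epithelium and lamina propria and leave the muscle layer. Total counts were 19712355, 21410743, 21140505 and 22412703 in normal cys libraries 1 to 4 and 21942518, 15708368 and 14888760 in low cys libraries 1 to 3. Levels are given as CPM, counts per 1000000 counts of a library after TMM scaling between libraries. In scrapings of whole mucosa, fewer cells of a type and less RNA per cell cannot be told apart.

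The comparison asked whether less cystine in a high-fat diet went with a different level of the genes that make and export triglyceride. The estimate was lower on the low cys diet for 10 of 10 members, against 48.8% of the 14869 genes tested, and Plin2 turned to a higher estimate (0.077) when libraries were scaled by their size alone. The median log2 fold change over the members was -0.49, over all genes tested it was 0.0072, and over the 3685 genes with a mean of at least 50 CPM, as all members have, it was -0.11. With edgeR, 0 of 10 members had an adjusted p under 0.05, as did 0 of all genes (0%), while 421 genes with a lower and 396 with a higher estimate had an unadjusted p under 0.05. When libraries were scaled by their size alone, 126 lower and 911 higher genes had such a p. With DESeq2, 0 members and 16 genes passed the adjusted threshold. The unadjusted p was under 0.05 for 3 members, Dgat2, Apoa1 and Dgat1, all with a lower estimate, beside 2.83% of all genes. In 2 members, Dgat2 and Mogat2, every low cys library lay under every normal cys library, which held for 3.51% of all genes. No member was higher by either measure, beside 2.66% and 3.32% of all genes.

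The members did not divide the libraries cleanly by diet. Low cys library 1 was the lowest of the 7 for 9 of 10 members, and normal cys libraries 3 and 4 were the highest for 7 and 3. Normal cys library 3 also stood apart in its label, which has another form than those of the other 6 mice, and in its share of mitochondrial counts, 10.98% against 6.08 to 8.43% in the others, and the part of this in the results was not tested. Relative to the mean of the normal cys libraries, the median member stood at -0.95 (log2) in low cys library 1, at -0.35 in low cys library 2 and at -0.13 in low cys library 3. Normal cys libraries 1 and 2 stood at -0.23 and -0.32, within the span of the low cys libraries. Without low cys library 1, the median log2 fold change over the members was -0.25 and 1 of 10, Dgat2, had an unadjusted p under 0.05 with a lower estimate, beside 0.551% of all genes. Without normal cys library 3, the median was -0.33 and again only Dgat2 was under that p, beside 1.29% of all genes. The members without overlap numbered 4 without normal cys library 1, as Apoa1 and Dgat1 joined Dgat2 and Mogat2, beside 9.39% of all genes. With scaling by library size alone there was 1, Dgat2, beside 1.05%. That scaling moved the median of all genes tested to 0.15 and that of the members to -0.34.

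**Figure D1:**
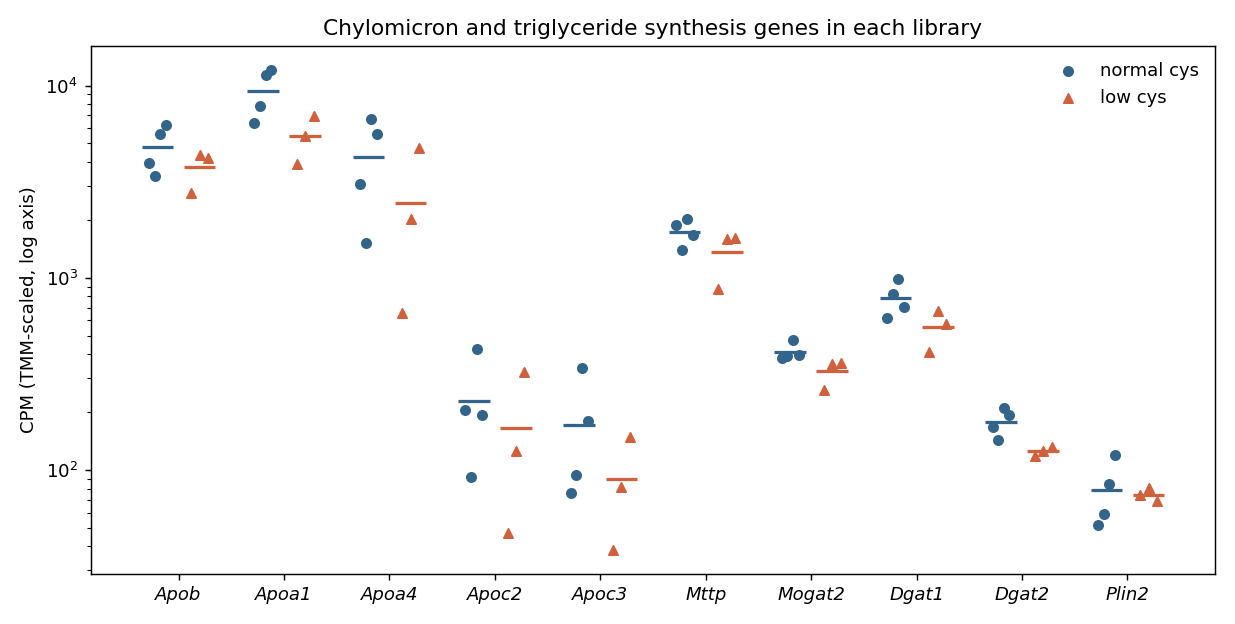
TMM-scaled CPM (log axis) of each member in every library, with 4 normal cys libraries as circles, 3 low cys libraries as triangles and the group mean as a line. The groups are apart for Mogat2 and Dgat2 and overlap for the other 8 members.

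Apob (ENSMUSG00000020609, chr12:7977648-8016835 in GRCm38, plus strand) encodes the structural protein of which each chylomicron carries a single copy. It stood at 3972, 3391, 5582 and 6215 CPM in normal cys libraries 1 to 4 and at 2762, 4351 and 4194 CPM in low cys libraries 1 to 3. Normal cys libraries 3 and 4 were above all others, low cys library 1 was below all others, and the groups overlapped. The means were 4789.9 ± 1327 CPM (SD, n = 4) and 3769 ± 875 CPM (SD, n = 3), and the log2 fold change was -0.35 (standard error 0.266), with unadjusted p = 0.226, adjusted p = 0.799 (edgeR). The estimate was -0.15 without low cys library 1, -0.20 without normal cys library 4 and -0.20 with scaling by library size alone.

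Apoa1 (ENSMUSG00000032083, chr9:46228580-46230466, plus strand) and Apoa4 (ENSMUSG00000032080, chr9:46240696-46243459, plus strand) encode surface apolipoproteins that are made with the particle and later pass to high density lipoprotein, and Apoa4 is known to be induced by dietary fat. The level of Apoa1 was 6403, 7803, 11366 and 12053 CPM in the normal cys libraries and 3905, 5448 and 6962 CPM in the low cys libraries. Of the low cys libraries, 1 (library 3) exceeded a normal cys library (library 1), so that the groups overlapped by a narrow margin. The means were 9406 ± 2734 CPM (SD, n = 4) and 5438 ± 1528 CPM (SD, n = 3), so that the low cys mean was 57.8% of the normal cys mean. The log2 fold change was -0.79 (standard error 0.292) with unadjusted p = 0.0240, adjusted p = 0.794 (edgeR), and it ranged from -1.01 to -0.59 when libraries were left out in turn. Its unadjusted p was not under 0.05 without normal cys library 3 or 4 or low cys library 1 or 2.

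For Apoa4 the normal cys libraries held 3090.4, 1513, 6720.1 and 5596 CPM and the low cys libraries 653, 2011 and 4719 CPM. The highest library was 10.3 times the lowest, the widest range of any member, and both diets had high and low mice. The coefficient of variation was 55.9% in normal cys and 84.1% in low cys, while the median over all genes tested was 21.6% and 13.8%. The log2 fold change of -0.78 (standard error 0.683) had an error nearly as large as itself (unadjusted p = 0.285, adjusted p = 0.806, edgeR), and it went from -0.31 without low cys library 1 and -0.46 without normal cys library 3 to -1.67 without low cys library 3, where its unadjusted p was under 0.05. Within a library, the log2 ratio of Apoa4 to Apob counts was -0.35 ± 0.60 (SD, n = 4) in normal cys and -1.01 ± 1.13 (SD, n = 3) in low cys. That difference of -0.66, which was -0.12 without low cys library 1 and -1.24 without low cys library 3, was put to an exact permutation test over the 35 assignments, two-sided, and did not pass (p = 0.371), whose smallest possible p is 0.0286.

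Apoc2 (ENSMUSG00000002992, chr7:19671579-19681423, minus strand) encodes the activator of lipoprotein lipase and Apoc3 (ENSMUSG00000032081, chr9:46232933-46235636, minus strand) its inhibitor. Apoc2 had 206, 91.9, 427 and 193 CPM on the normal cys diet and 46.9, 125 and 322 CPM on the low cys diet. Apoc3 had 76.2, 94.4, 338 and 179.6 CPM and 38.5, 81.6 and 149 CPM. In both genes, normal cys library 3 was highest and low cys library 1 was lowest, as for Apoa4, and low cys library 3 exceeded normal cys libraries 1 and 2. The log2 fold change was -0.48 (standard error 0.662) for Apoc2 (unadjusted p = 0.488, adjusted p = 0.857, edgeR) and -0.94 (standard error 0.597) for Apoc3 (unadjusted p = 0.151, adjusted p = 0.794, edgeR). Without normal cys library 3 the estimate was 0.0059 for Apoc2 and -0.38 for Apoc3, without low cys library 1 it was -0.021 and -0.56, and without low cys library 3 it was -1.42 and -1.52, and there the unadjusted p of Apoc3 was under 0.05. Apoc2 was also at -0.72 without normal cys library 2 and -0.30 without low cys library 2. The log2 ratio of Apoc2 to Apoc3 counts differed by 0.21 between the diets (exact permutation test, two-sided, p = 0.629), and by between -0.0064 (without low cys library 3) and 0.54 (without normal cys library 1) with libraries left out.

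Within each diet, 2 of 6 markers of the proximal small intestine, Lct and Fabp1, were highest in the same libraries as Apoa4, Apoc2 and Apoc3, and the other 4 were not. Summed over the 6 genes of that list, the level was 462, 577, 1380.4 and 683 CPM in normal cys libraries 1 to 4 and 261, 368 and 1028 CPM in low cys libraries 1 to 3, with Lct the most abundant gene and Cybrd1 below 1 CPM in every library. Lct, which encodes lactase, was at 235, 422, 897 and 217 CPM and 89.6, 173 and 599 CPM, highest in normal cys library 3 and low cys library 3. Slc40a1, an iron exporter of the same list, was at 77.2, 20.4, 17.3 and 38.9 CPM and 105, 55.4 and 46.8 CPM, highest in normal cys library 1 and low cys library 1. Of the 5 genes tested, 3 had a lower and 2 a higher estimate (4 and 1 without low cys library 2). The list for the distal ileum, led by Fabp6, was present in all libraries, with a sum between 5318 CPM in low cys library 1 and 11839 CPM in normal cys library 4, and 6 of its 7 genes had a lower estimate. The part of these markers in the results was not tested.

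Mttp (ENSMUSG00000028158, chr3:138089855-138143388, minus strand) encodes the large subunit of the transfer protein that lipidates apolipoprotein B. Its level was 1879, 1386, 2022 and 1662 CPM in the normal cys libraries and 872, 1596 and 1613 CPM in the low cys libraries. Apart from low cys library 1, all libraries lay between 1386 and 2022 CPM, and low cys libraries 2 and 3 lay inside the normal cys range. Its estimated log2 difference was -0.35 (standard error 0.245) with unadjusted p = 0.183, adjusted p = 0.794 (edgeR), and it was -0.10 without low cys library 1 and -0.21 with scaling by library size alone.

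Mogat2 (ENSMUSG00000052396, chr7:99219084-99238619, minus strand) makes diacylglycerol from absorbed monoacylglycerol, the first step of the main route to triglyceride in enterocytes. It was at 381, 391, 474 and 397 CPM on the normal cys diet and at 260.1, 358 and 359 CPM on the low cys diet. All low cys libraries were below all normal cys libraries, though low cys libraries 2 and 3 missed the lowest normal cys library by a small distance. The means were 411 ± 42.8 CPM (SD, n = 4) and 326 ± 56.7 CPM (SD, n = 3), giving a log2 fold change of -0.34 (standard error 0.162), unadjusted p = 0.0676, adjusted p = 0.794 (edgeR). The estimate was -0.19 without low cys library 1 and -0.19 with scaling by library size alone, under which the diets overlapped.

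Dgat1 (ENSMUSG00000022555, chr15:76502015-76511951, minus strand) and Dgat2 (ENSMUSG00000030747, chr7:99153663-99182713, minus strand) encode unrelated acyltransferases that both add the last fatty acid to diacylglycerol. Dgat1 was measured at 619, 825, 982 and 703 CPM in the normal cys libraries and at 409, 668 and 577 CPM in the low cys libraries. Low cys library 2 exceeded normal cys library 1, so the groups overlapped. Dgat2 was measured at 167, 144, 211 and 192 CPM and at 117, 125 and 132 CPM. Here all 3 low cys libraries were below all 4 normal cys libraries and lay close together, with a coefficient of variation of 5.93%.

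The log2 fold change was -0.51 (standard error 0.219) for Dgat1 (unadjusted p = 0.0465, adjusted p = 0.794, edgeR) and -0.52 (standard error 0.153) for Dgat2 (unadjusted p = 0.00791, adjusted p = 0.794, edgeR). Without low cys library 1 the estimate for Dgat1 was -0.32. Its unadjusted p was not under 0.05 in 7 of 16 alternatives, namely without normal cys library 2 or 3, without low cys library 1 or 3, with scaling by library size alone or by the upper quartile, and with at least 10 counts in every library. Dgat2 had the smallest unadjusted p of the 10 members, a lower level in 3 of 3 low cys libraries than in any normal cys library, and an estimate between -0.59 and -0.43 with libraries left out in turn, the narrowest such range of the 10. It had an unadjusted p under 0.05 and no overlap with TMM scaling and in all 16 alternatives, which reuse the same libraries. The marker genes Col3a1, Dcn, Gcg, Igj and Slc28a2 also kept such a p in every alternative that tested them. The share of all genes that did so was not measured. The Dgat2 to Dgat1 count ratio, on the log2 scale, was -2.12 ± 0.31 (SD, n = 4) in normal cys and -2.11 ± 0.31 (SD, n = 3) in low cys, a difference of 0.0092 (exact permutation test, two-sided, p = 1.00), whose sign turned without normal cys library 2 or 3 or low cys library 1. Between single mice of a diet the ratio ranged more widely, from 0.174 to 0.274 in normal cys and from 0.187 to 0.287 in low cys.

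Plin2 (ENSMUSG00000028494, chr4:86648386-86670060, minus strand) coats cytosolic lipid droplets. Its values were 51.7, 59.0, 84.3 and 119.9 CPM in the normal cys libraries and 73.9, 80.7 and 68.8 CPM in the low cys libraries. All 3 low cys libraries lay inside the normal cys range, and low cys library 1 was not the lowest here. The log2 fold change was -0.081 (standard error 0.267), with unadjusted p = 0.769, adjusted p = 0.941 (edgeR), and it went from -0.24 without normal cys library 1 to 0.20 without normal cys library 4.

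Levels were compared between genes per kilobase of exon length. In normal cys, Apoa1 was highest (7610.1 ± 2212 CPM per kilobase, SD, n = 4), followed by Apoa4 (2330.4 ± 1302), and the libraries of these genes did not overlap with each other or with the next gene. Mttp (394 ± 62.8), Apob (344 ± 95.3), Dgat1 (256 ± 51.6), Apoc2 (246 ± 152), Mogat2 (224 ± 23.3), Apoc3 (169.7 ± 118) and Dgat2 (79.4 ± 13.0) came next, each overlapping with its neighbour in that order. Plin2 was lowest, at 22.4 ± 8.77 CPM per kilobase, with no overlap with Dgat2. In low cys the order was the same except that Mogat2 (177 ± 30.9, SD, n = 3) came just before Apoc2 (177 ± 152), genes that overlapped in both diets, and that the lowest Apoa4 library reached the range of Mttp.

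The 10 members together held 1.64, 1.61, 2.54 and 2.55% of all counts in normal cys libraries 1 to 4 and 1.02, 1.51 and 1.99% in low cys libraries 1 to 3. Apoa1 alone took between 0.436% and 1.13%. The mean share was 2.08% ± 0.531 (SD, n = 4) for normal cys, while for low cys it was 1.51% ± 0.485 (SD, n = 3), and low cys library 3 lay above normal cys libraries 1 and 2. The difference of -0.577 percentage points was -0.334 without low cys library 1.

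General enterocyte markers were lowest in the same library as 9 of 10 members. The 10 markers summed to 38069, 40846, 51996 and 47567 CPM in normal cys libraries 1 to 4 and to 22660.5, 36809 and 34883 CPM in low cys libraries 1 to 3, with Fabp2 the most abundant and none at 0, and low cys library 1 was again the lowest. The estimate was lower on the low cys diet for 10 of 10 of them under every scaling, and for 9 without normal cys library 3. In 3 of 10 (Vil1, Krt20 and Cdhr5) the groups did not overlap, all being lower, beside 3.51% of all genes. This count was 6 without normal cys library 1, 5 without normal cys library 4, 7 without low cys library 2 and 1, Cdhr5, with scaling by library size alone, where the share of all genes was 9.39, 5.26, 8.05 and 1.05%. The part of this list in the results was not tested. Vil1, which encodes villin of the brush border, had 3567, 3735, 3792 and 3595 CPM and 2195, 3419 and 2883 CPM.

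The members were therefore also set against these markers within each library, in a measure chosen after the data were seen. Each member's log2 CPM was taken minus the mean log2 CPM of the 10 enterocyte markers, which itself was -0.45 (log2) in low cys relative to normal cys and -0.26 without low cys library 1. On this scale 6 members were lower and 4 were higher on the low cys diet, the median difference was -0.060, and the groups overlapped for 10 of 10 members. The split was 4 lower and 6 higher without low cys library 1, 5 and 5 without low cys library 2 or normal cys library 3, 7 and 3 without low cys library 3 and 8 and 2 without normal cys library 2, with medians from -0.082 to 0.039. Without overlap were 2 higher members without normal cys library 4, and 1 higher member without normal cys library 1 or low cys library 2. Without low cys library 3 it was 1 lower member. The share of all genes without overlap was not measured on this scale. With its range over left-out libraries, the difference was -0.056 (-0.20 to 0.062) for Dgat2, -0.065 (-0.11 to -0.013) for Dgat1, 0.10 (0.064 to 0.14) for Mogat2, 0.054 (-0.030 to 0.16) for Mttp and 0.12 (-0.017 to 0.25) for Apob. It was -0.33 (-0.46 to -0.20) for Apoa1, -0.54 (-1.15 to 0.014) for Apoa4, -0.24 (-0.85 to 0.27) for Apoc2, -0.45 (-0.84 to -0.12) for Apoc3 and 0.44 (0.25 to 0.67) for Plin2. The sign turned for Apoa4 without low cys library 1, for Apoc2 without low cys library 1 or normal cys library 3, for Dgat2 without low cys library 2, for Mttp without low cys library 3 or normal cys library 2 and for Apob without normal cys library 2.

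**Figure D2:**
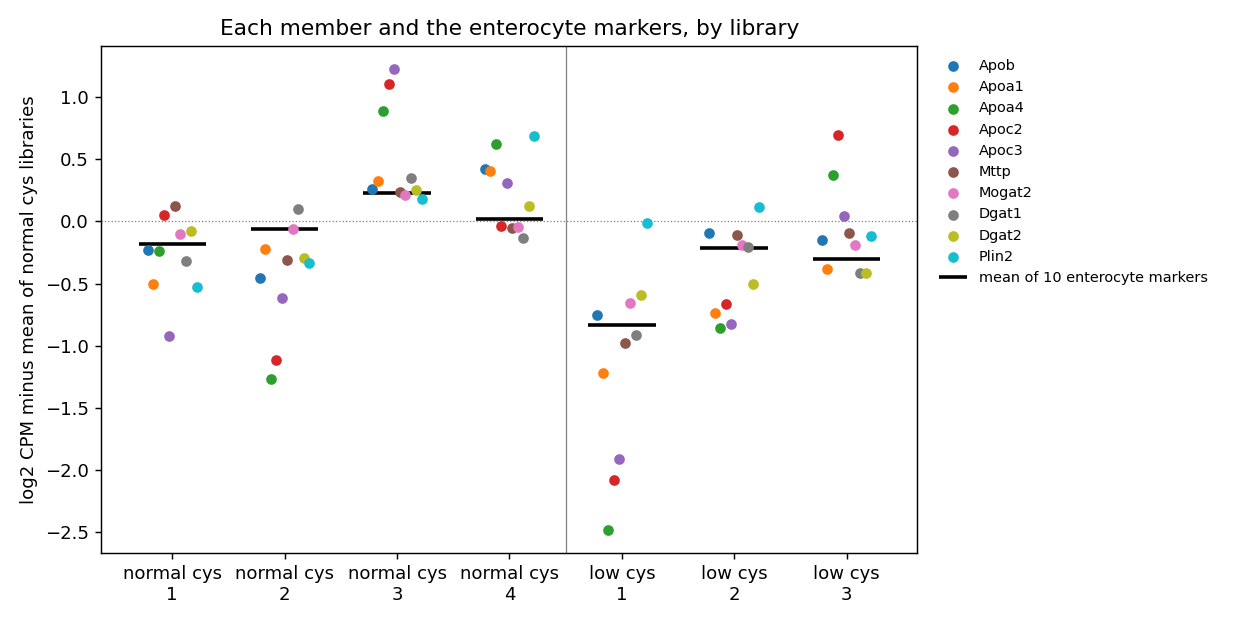
Log2 CPM of each member minus its own mean over the 4 normal cys libraries, by library, with the mean of the 10 enterocyte markers on the same scale as a black bar. In low cys library 1 the enterocyte markers and 9 of 10 members are at their lowest, and Apoa4, Apoc2 and Apoc3 spread furthest from the bar.

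Other cell type lists were read in the same way. Markers of the villus tip summed to 1220.5, 676, 1459 and 1542 CPM in the normal cys and 372, 871 and 774 CPM in the low cys libraries (most abundant gene Klf4, none at 0), and 6 of 6 had a lower estimate (5 of 6 with scaling by library size alone, without normal cys library 1 or without low cys library 1), the largest difference being that of Slc28a2, with -1.31 (standard error 0.400) and unadjusted p = 0.0104, adjusted p = 0.794 (edgeR). Crypt and cycling cell markers, led by Mki67, summed to 426, 279.7, 215 and 197 CPM and 397, 251 and 379 CPM, and 7 of 8 had a higher estimate. Paneth cell markers, led by Lyz1, summed to 3899, 1974, 1955 and 596 CPM and 3978, 2391 and 4196 CPM, and 5 of 5 had a higher estimate (4 of 5 without normal cys library 4). Normal cys library 4 was the lowest of the 7 for both of these lists. None of the 3 lists had a marker at 0. The part of the villus tip, crypt and Paneth cell lists in the results was not tested.

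The lower villus list, led by Reg3b, summed to 29281, 3763, 2476 and 3181 CPM and 28816, 4295 and 8434 CPM, high in normal cys library 1 and low cys library 1, and 4 of 5 had a higher estimate (2 of 5 without low cys library 1). Stroma markers, led by Col3a1, summed to 8.93, 5.54, 6.83 and 4.11 CPM and 11.8, 18.6 and 15.4 CPM, and smooth muscle markers, led by Myh11, to 12.1, 7.31, 4.57 and 2.34 CPM and 5.63, 38.2 and 14.4 CPM. Estimates were higher for 5 of 5 stroma and 6 of 6 smooth muscle genes tested, and low cys library 2, not library 1, was the highest for both. With edgeR the unadjusted p was under 0.05 for 2 stroma genes (Col3a1 and Dcn) and 2 smooth muscle genes (Actg2 and Des), all higher, beside 2.66% of all genes. Higher without overlap were 2 stroma and 0 smooth muscle genes, beside 3.32%. With DESeq2, 1 stroma gene, Dcn, passed the adjusted threshold, as did 16 over all genes. With edgeR and limma-voom 0 genes passed it. B and plasma cell markers (led by Igj) summed to 107, 119, 111 and 38.0 CPM and 152, 221 and 207 CPM. For these, 4 of 5 estimates were higher, with 1 of 5 without normal cys library 4 and 2 of 5 without normal cys library 1 or low cys library 2. Macrophage markers (led by C1qa) summed to 35.5, 32.6, 31.2 and 15.2 CPM and 37.9, 36.7 and 42.1 CPM, higher in 6 of 6 (5 of 6 without normal cys library 4 or low cys library 1 or 2). Endothelial markers (led by Lyve1) summed to 11.1, 8.86, 9.31 and 10.1 CPM and 16.2, 12.4 and 12.1 CPM, higher in 5 of 5 tested (4 of 5 without normal cys library 4). T cell markers (led by Gzma) summed to 161, 93.5, 108 and 93.7 CPM and 63.9, 106 and 88.1 CPM, lower in 5 of 5 (4 of 5 without normal cys library 1 or low cys library 1). No marker of these lists was at 0 in all libraries. The part of these lists in the results was not tested.

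Goblet cell markers (led by Fcgbp) had 4 lower and 2 higher estimates, and enteroendocrine markers (led by Nts) 4 lower and 3 higher. Tuft cell markers (led by Trpm5) were lower in 4 of 4 tested. The enteroendocrine gene Gcg was higher with an unadjusted p under 0.05, beside 2.66% of all genes, and 1 gene of its list was higher without overlap, beside 3.32%. The tuft cell gene Avil was lower with such a p, beside 2.83%, but not in 6 of 16 alternatives. The hepatocyte markers Alb, Ahsg, Fga and Fgb had at most 3 counts in any library. Tat, the most abundant of that list, ranged from 0.764 to 37.7 CPM. Of the pancreatic acinar markers, Cela3b, Pnlip, Prss2 and Cel had 0 counts in every library, and Clps led that list. Of the adipocyte markers, Lep, Plin1 and Retn were under 1 CPM in every library, and Cidec, which is also in the lipid droplet list, led.

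The wider pathway was described by 5 lists of 93 genes, of which 79 were tested. The estimate was lower for 59 and higher for 20 of them, the median log2 fold change was -0.16, and 0 of 79 had an adjusted p under 0.05 with edgeR or with DESeq2. With scaling by library size alone, which moves the median of all genes up, 41 were lower and 38 higher and the median was -0.017. Without low cys library 1 the median was -0.079. The unadjusted p was under 0.05 for 6 lower genes and 1 higher gene with edgeR, beside 2.83% and 2.66% of all genes. It was so for 0 genes without normal cys library 3 or without low cys library 1, where it held for 2.73% and 1.71% of all genes in either direction. Without normal cys library 1 there were 9 lower and 3 higher genes, beside 5.63% and 6.3% of all genes. With scaling by library size alone there were 0 lower and 4 higher genes, beside 0.847% and 6.13%. The count of higher genes was 5 without normal cys library 4, 2 without low cys library 3 and 3 with upper quartile scaling, beside 3.42, 1.54 and 3.35%. The groups did not overlap for 4 lower and 2 higher genes of the 79, beside 3.51% and 3.32% of all genes. Without low cys library 2 these were 12 and 4, beside 8.05% and 11.6%.

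The list for chylomicron assembly, editing and transport had 23 lower and 2 higher estimates among 25 genes tested (14 and 11 with scaling by library size alone, 20 and 5 with upper quartile scaling, 16 and 9 without low cys library 1, 19 and 6 without normal cys library 4, 21 and 4 without normal cys library 1 or with limma-voom), with a median of -0.17, or -0.085 without low cys library 1 and -0.027 with scaling by library size alone. In 3 of them, all lower, the unadjusted p was under 0.05, beside 2.83% of all genes, and in 0 with scaling by library size alone, beside 0.847%. Those were Sec24d (a coat subunit of the transport vesicle), Cideb (which helps to lipidate lipoproteins) and Apobec1 (which edits the Apob transcript to its short intestinal form), and in these 3 genes the groups did not overlap, beside 3.51% of all genes. Without overlap, all lower, were 6 genes without low cys library 2, 5 without normal cys library 4, 5 without low cys library 3 and 1, Sec24d, with scaling by library size alone, beside 8.05, 5.26, 5.81 and 1.05% of all genes. Without normal cys library 2 there were 4 lower and 2 higher genes without overlap, beside 5.99% and 6.73%. There 3 lower genes and 1 higher gene had an unadjusted p under 0.05, beside 3.15% and 3.02%. Without low cys library 1, or without normal cys library 3, 0 genes of the list were under that p, and without normal cys library 1 it was 1, Cideb, beside 0.551, 1.29 and 5.63% of all genes. Cideb was not under it without low cys library 2. Apobec1 was not under that p in 14 of 16 alternatives, among them every one that left out a library. Sec24d stood at 112, 89.8, 129 and 104 CPM in normal cys and 48.6, 84.6 and 87.9 CPM in low cys libraries, its estimate on the log2 scale being -0.56 (standard error 0.218) with unadjusted p = 0.0306, adjusted p = 0.794 (edgeR). Cideb stood at 269, 277, 368 and 307 CPM and 183, 246 and 253 CPM, with -0.43 (standard error 0.170). Apobec1 stood at 48.5, 46.4, 54.8 and 48.3 CPM and 44.5, 41.4 and 37.2 CPM, with -0.27 (standard error 0.119), and here low cys library 1 was the highest of the low cys libraries. Without low cys library 1 the estimate was -0.32 for Sec24d and -0.28 for Cideb, and with scaling by library size alone it was -0.28 for Cideb and -0.12 for Apobec1.

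The other named genes of that list overlapped between the diets. P4hb, the small subunit of the transfer protein and the most abundant gene of the list per kilobase, had a log2 fold change of -0.25 (standard error 0.192), Sar1b, the GTPase of the vesicle coat, of -0.28 (standard error 0.251), and Surf4, a cargo receptor, of -0.27 (standard error 0.149). Without low cys library 1 these were -0.080 for P4hb, -0.11 for Sar1b and -0.17 for Surf4, and with scaling by library size alone -0.11, -0.13 and -0.14. Tm6sf2, which takes part in lipoprotein lipidation, had -0.33 (standard error 0.157) with unadjusted p = 0.0639, adjusted p = 0.794 (edgeR). Its estimate was -0.21 without low cys library 1 and -0.19 with scaling by library size alone. P4hb was at -0.16 without normal cys library 3 and -0.39 without low cys library 3, and Sar1b at -0.14 and -0.17 without normal cys libraries 3 and 4.

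In the list for fatty acid activation and the glycerol phosphate pathway, 12 of 19 genes tested had a lower and 7 a higher estimate (10 and 9 with scaling by library size alone). Their median was -0.16, or -0.044 without low cys library 1, -0.077 without normal cys library 2 and -0.025 with scaling by library size alone. Acsl5, the most abundant acyl-CoA synthetase of the list per kilobase, had a log2 fold change of -0.48 (standard error 0.307), and low cys library 1, at 606 CPM, lay far under the other 6 libraries, which ranged from 1307 to 2108 CPM. Lpin3, a phosphatidate phosphatase, had -0.40 (standard error 0.160) with unadjusted p = 0.0334, adjusted p = 0.794 (edgeR). Leaving out low cys library 1 gave -0.16 for Acsl5 and -0.25 for Lpin3, Acsl5 was at -0.32 without normal cys library 3, and Lpin3 at -0.26 with scaling by library size alone. The unadjusted p of Lpin3 was not under 0.05 with scaling by library size alone, or with any 1 of normal cys libraries 2, 3 and 4 and low cys libraries 1 and 3 left out. The named genes with a higher estimate were at low levels. Acsl4, an acyl-CoA synthetase for long polyunsaturated fatty acids, had 1.72, 2.45, 2.26 and 3.34 CPM and 3.71, 5.25 and 3.29 CPM, with 0.73 (standard error 0.298) and unadjusted p = 0.0356, adjusted p = 0.794 (edgeR), and the unadjusted p was not under 0.05 with any 1 of normal cys libraries 1, 2 and 3 and low cys libraries 1 and 2 left out. Gpam, which begins the glycerol phosphate route, had 4.02, 2.09, 1.79 and 2.77 CPM and 5.06, 3.44 and 4.38 CPM, with 0.69 (standard error 0.319). Mogat1, the relative of Mogat2, had 0 counts in every library.

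Among 14 tested genes of lipid droplets and lipolysis, 9 had a lower and 5 a higher estimate (6 and 8 with scaling by library size alone, 11 and 3 without low cys library 2). The median was -0.11, and it was -0.055 without low cys library 1, -0.23 without low cys library 2 and -0.17 without normal cys library 4, and turned to 0.033 with scaling by library size alone. Plin3, the most abundant per kilobase, had a log2 fold change of -0.38 (standard error 0.168) with unadjusted p = 0.0512, adjusted p = 0.794 (edgeR), and Pnpla2, the triglyceride lipase of droplets, of -0.21 (standard error 0.149). Leaving out low cys library 1 gave -0.22 for Plin3, and scaling by library size alone gave -0.24 for Plin3 and -0.060 for Pnpla2, which was at -0.12 without normal cys library 4. Fitm2, which acts in droplet formation, was at 8.62, 10.6, 10.6 and 12.1 CPM in normal cys and 13.7, 12.9 and 12.5 CPM in low cys libraries. It was higher in 3 of 3 low cys libraries than in any normal cys library, which held for 3.32% of all genes. Its log2 fold change was 0.31 (standard error 0.162). Of the other apolipoproteins, Apoe and Apoh were tested. Apoe was at 49.1, 56.1, 53.1 and 16.5 CPM and 57.2, 67.2 and 72.4 CPM, above all normal cys libraries in 3 of 3 low cys libraries, with 0.59 (standard error 0.356) and unadjusted p = 0.136, adjusted p = 0.794 (edgeR), and without normal cys library 4, the lowest, its estimate was 0.31.

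Of the 19 transcriptional regulators of intestinal lipid genes, which include coactivators, 14 had a lower and 5 a higher estimate (11 and 8 with scaling by library size alone). The median of -0.18 was -0.079 without low cys library 1, -0.11 without low cys library 3, -0.12 without normal cys library 2, -0.092 without normal cys library 3 and -0.037 with scaling by library size alone. Creb3l3, a membrane-bound factor known to raise Apoa4 and Apoc2, was at 241, 392, 593 and 595 CPM in the normal cys and 135, 295 and 313 CPM in the low cys libraries. The estimate was -0.88 (standard error 0.379) on the log2 scale (unadjusted p = 0.0466, adjusted p = 0.794, edgeR), and the groups overlapped, since normal cys library 1 was under low cys libraries 2 and 3. Gata6 was at 52.5, 49.4, 60.8 and 50.6 CPM and 36.8, 46.1 and 42.5 CPM. It was lower in 3 of 3 low cys libraries than in any normal cys library, which held for 3.51% of all genes. Its estimate was -0.35 (standard error 0.130) with unadjusted p = 0.0237, adjusted p = 0.794 (edgeR). Hnf4a, the most abundant of the list per kilobase, had -0.20 (standard error 0.163), and its relative Hnf4g 0.23 (standard error 0.204). For Creb3l3 the estimate without low cys library 1 was -0.57. The unadjusted p of Creb3l3 was not under 0.05 in 7 of 16 alternatives (each of normal cys libraries 2, 3 and 4 and low cys libraries 1 and 2 left out, scaling by library size alone and no filter), and that of Gata6 in 4 (normal cys library 3 or low cys library 1 or 3 left out, and scaling by library size alone). With scaling by library size alone it was -0.21 for Gata6, -0.058 for Hnf4a and 0.38 for Hnf4g. Hnf4a was at -0.11 without normal cys library 1 and -0.13 without low cys library 1, and Hnf4g at 0.14, 0.15 and 0.37 without normal cys libraries 1, 2 and 4 and 0.11 without low cys library 2.

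**Figure D3:**
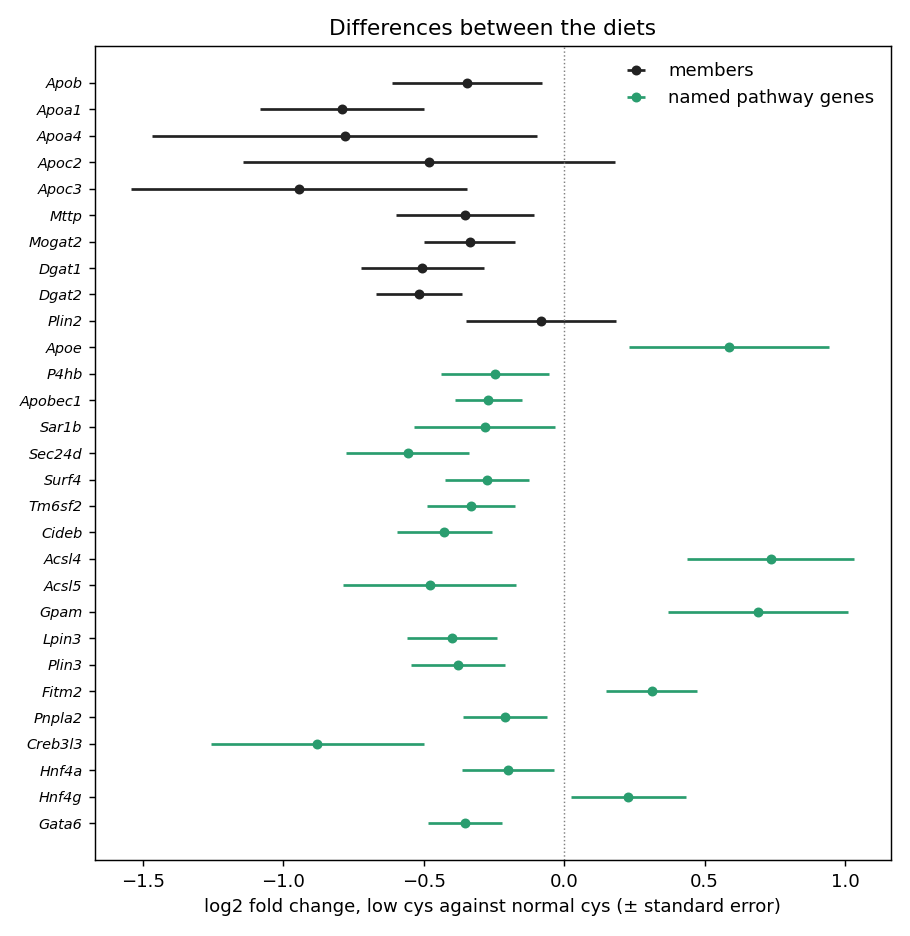
Log2 fold change of low cys (n = 3) against normal cys (n = 4) with its standard error from edgeR, for the 10 members (black) and 19 named genes of the pathway lists (green). All 10 members lie to the left of 0, with Plin2 close to it and turning positive (0.077) under scaling by library size alone.

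Apoa4 was the member that varied most over the 7 libraries (SD of log2 CPM 1.20). Among 8615 other genes with a mean of at least 10 CPM, the 5 whose log2 CPM followed it most closely were Amotl2 (Pearson r = 0.975, Spearman rho = 1.00), Tubb2a (r = 0.970, rho = 0.964), 1700017B05Rik (r = 0.968, rho = 0.964), Tmem184a (r = 0.967, rho = 0.929) and Lman1 (r = 0.967, rho = 0.964). Tubb2a, for example, had 46.0, 39.6, 78.5 and 89.2 CPM in normal cys libraries 1 to 4 and 24.7, 45.3 and 65.2 CPM in low cys libraries 1 to 3. Of the other members, Apoc2 was nearest (r = 0.955, rho = 0.893) and Plin2 furthest (r = 0.363, rho = 0.500). These values come from the same 7 libraries and share their scaling and the low values of low cys library 1.

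Some members lie together in the genome. Apoa1, Apoc3 and Apoa4 are neighbours on chromosome 9, with Apoc3 on the opposite strand, and Dgat2 and Mogat2 lie close together on chromosome 7. In the deposited annotation, 34.8% of the exon bases of Apoa4 are overlapped on the opposite strand by Gm10680, which had 15 to 73 counts per library, and 12.0% of those of Apoc2 on the same strand by Apoc4, which had 0 to 8. Of the stretches of 50 bases (the read length) in GENCODE M21 transcripts, 78.3% for Apoc2, 60.9% for Apoa4, 7.23% for Mttp, 2.57% for Plin2 and 0.336% for Mogat2 also occur in a transcript of another gene on either strand. How many counts this touches was not measured. The other 5 members shared 0 stretches.

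Promoter windows of 300 bases (around each gene start in RefSeq, GRCm38.p6) were found for 6 members, and there was no entry for Apoc3, Mogat2, Dgat1 and Dgat2. They were searched on both strands for motifs. CAAAGTCCA, for the nuclear receptor HNF4, is held by 0.475% of all 32851 windows of that length. AGGTCA, the core of many nuclear receptor sites, is held by 16.3%, and AGATAA, for factors such as Gata6, by 11.2%. The core promoter element TATAAA is held by 13.6%. AGGTCA was found in 2 of the 6 members, Apoc2 and Plin2, and TATAAA in 1, Apob, while CAAAGTCCA and AGATAA were found in 0. The windows of Apoa4 (chr9:46240594-46240893, plus strand), Apoc2 (chr7:19677892-19678191, minus strand) and Apob (chr12:7977427-7977726, plus strand) are shown because Apoc2 and Apob followed Apoa4 over the 7 libraries (r = 0.955 and 0.903), all being lowest in low cys library 1, though Apob was highest in normal cys library 4 and the others in normal cys library 3. The RefSeq start of Apoc2 lies 3482 bases inside the gene as the deposited annotation places it, and 98 bases of its window overlap Apoc4, while the starts of Apoa4 and Apob lie 148 and 29 bases inside. Capitals mark AGGTCA in Apoc2 and TATAAA in Apob, and the Apoa4 window holds none of the motifs.
Apoa4: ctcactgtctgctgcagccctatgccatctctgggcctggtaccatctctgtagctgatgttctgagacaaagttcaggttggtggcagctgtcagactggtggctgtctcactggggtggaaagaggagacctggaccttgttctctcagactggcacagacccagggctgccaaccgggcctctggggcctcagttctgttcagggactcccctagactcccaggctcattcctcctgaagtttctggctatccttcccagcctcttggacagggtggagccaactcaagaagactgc
Apoc2: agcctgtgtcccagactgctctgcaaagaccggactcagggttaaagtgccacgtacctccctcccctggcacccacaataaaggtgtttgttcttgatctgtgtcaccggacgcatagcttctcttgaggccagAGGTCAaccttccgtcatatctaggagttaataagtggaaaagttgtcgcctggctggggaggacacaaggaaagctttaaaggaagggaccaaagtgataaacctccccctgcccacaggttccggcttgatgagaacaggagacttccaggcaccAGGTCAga
Apob: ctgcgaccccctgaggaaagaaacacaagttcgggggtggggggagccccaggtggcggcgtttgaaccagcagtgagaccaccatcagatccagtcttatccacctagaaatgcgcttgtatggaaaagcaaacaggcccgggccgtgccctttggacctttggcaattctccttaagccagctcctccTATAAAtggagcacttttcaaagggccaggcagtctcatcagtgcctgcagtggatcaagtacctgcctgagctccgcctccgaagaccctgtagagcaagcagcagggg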

How the data were processed

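RNA from ileal scrapings of 7 mice was sequenced as stranded poly(A) libraries with 50-base paired reads. The authors deposited raw read counts per gene, made by trimming, removal of ribosomal reads, alignment to GRCm38 with STAR and counting on exons of Ensembl release 70 with featureCounts. The strand setting and the treatment of reads that map to several places are not given in the sources used here. Groups came from the sample labels. Counts were filtered with filterByExpr (minimum count 10, minimum total 15), scaled by TMM and compared with edgeR 4.0.16 (robust quasi-likelihood test) in R 4.3.3, with Benjamini-Hochberg adjustment over 14869 genes. The variation between mice of a diet was 25.5% (biological coefficient of variation). Log2 CPM used a prior count of 2. Count ratios within a library were tested by exact permutation, two-sided. Alternatives were DESeq2 1.42.0, limma-voom (limma 3.58.1), other scalings (DESeq2 size factors, library size alone, TMM without the members, upper quartile), no filter, at least 10 counts in every library, a non-robust fit, medians of ratios, other denominators of the share and leaving out each library. Named genes were all members and, from the pathway lists, those with an unadjusted p under 0.05 or groups without overlap, the most abundant gene of each list per kilobase and 13 genes chosen for their role. Single marker genes were named after their values were seen. The members and lists were chosen with earlier results of these data known. Total counts ranged from 14888760 to 22412703, and the lowest count of a member was 943 (Apoc3, low cys library 1). Tables and figures were made with Python 3.11.15, pandas 2.3.3 and matplotlib 3.10.9.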

Additional observations from a re-analysis of the deposited data

Results flagged for a closer look

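In the normal cys group, 52 values were examined for a library far from the other 3, and 4 stood out, where chance gives about 1 in 20. The level of Apoe was 16.5 CPM in normal cys library 4 and between 49.1 and 56.1 CPM in the others (gap over range, on log2 CPM, 0.890). The summed lower villus markers were 29281 CPM in normal cys library 1 and at most 3763 CPM in the others (gap over range, on CPM and not log2 CPM, 0.952). The summed hepatocyte markers, led by Tat, were 38.6 CPM in normal cys library 1 and at most 4.41 CPM in the others (gap over range, on CPM and not log2 CPM, 0.922). The summed B and plasma cell markers were 38.0 CPM in normal cys library 4 and at least 107 CPM in the others (gap over range, on CPM and not log2 CPM, 0.863). None of the 10 members stood out in this way.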

How the results depend on the processing

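No member had an adjusted p under 0.05 in any of the 16 alternatives, and the smallest was 0.373 (edgeR, without normal cys library 1). Over all genes, DESeq2 called 16 and leaving out libraries gave 0 to 1. With libraries left out, the members with an unadjusted p under 0.05, all lower, numbered 1 to 4, beside 0.551 to 5.63% of all genes. The 4 were found without low cys library 3, beside 1.9%. Those without overlap numbered 2 to 4, beside 4.2 to 9.39%, or 1, beside 1.05%, with scaling by library size alone. That scaling moved the median of all genes to 0.15 and of the members to -0.34, and Plin2 to 0.077. With libraries left out, Plin2 ranged from -0.24 to 0.20 and Apoc2 from -1.42 to 0.0059, while the other 8 members and all 19 named pathway genes kept their sign in all 16 alternatives. The difference in the log2 ratio of Dgat2 to Dgat1 was -0.072 with medians and -0.15 to 0.16 with libraries left out. That of Apoc2 to Apoc3 was 0.40 with medians and -0.0064 to 0.54 with libraries left out, and that of Apoa4 to Apob -0.86 and -1.24 to -0.12. The cause was not tested. Relative to the enterocyte markers, a measure chosen after seeing the data, 6 members were lower and 4 (Apob, Mttp, Mogat2 and Plin2) higher, and 4 to 8 were lower with libraries left out (4 without low cys library 1, where Apoa4 and Apoc2 turned). The share of counts held by the members differed by -0.577 percentage points (low minus normal cys) and ranged from -0.818 to -0.334 with libraries left out (the smallest difference without low cys library 1). The labels give no sequencing batch. No paired analysis was possible because the labels give the mice no shared numbers. With 3 and 4 libraries, exact tests cannot go below p = 0.0286.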
